A study of Mus musculus with 4 samples.

Results

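YAP5SA-responding cardiomyocyte nuclei are the nuclei of hearts given an activated YAP that carry RNA of 4 genes almost silent in control cardiomyocytes. They were chosen by measured values in the 2 YAP5SA libraries. A responder nucleus had at least 500 genes, at most 5% of its UMIs (unique transcript tags) from mitochondrial genes, at least 0.8% from Ttn, Ryr2, Trdn, Ctnna3, Rbm20 and Tnnt2 together, and at least 0.2% from Cemip, Col4a3, Col4a4 and Pak3 together. The rule found 2976 nuclei among 36648 barcodes, or among the 18860 nuclei of all 4 libraries that met the first 3 conditions, here called gated nuclei. The 7683 gated nuclei of the control libraries are the comparison, and the remaining 8201 gated nuclei of the YAP5SA libraries are called other gated nuclei. Of the 4 genes, Cemip encodes a hyaluronan-binding protein, Col4a3 and Col4a4 encode basement membrane collagen chains, and Pak3 encodes a p21-activated kinase.

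Each library came from wild-type whole mouse heart at postnatal day 12, read as nuclear RNA on the 10x Genomics 3′ platform. At day 7 the mice had received saline (control) or AAV9 carrying YAP5SA, an active form of YAP, behind the cardiac troponin T promoter, which is active in cardiomyocytes. The titles give 5 days of maternal chow or maternal high-fat diet (HFD), which makes 4 groups of 1 library each: control chow, YAP5SA chow, control HFD and YAP5SA HFD. The treatment labels of YAP5SA chow and control HFD name the opposite diet. If those labels hold, vector and diet changed together and cannot be told apart in any comparison with control, and every statement on diet here rests on the titles. The control was saline, so the virus and its cargo cannot be told apart either. How many hearts a library pooled was not given in the sources used here, and p-values measure only the spread between these libraries.

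YAP is a transcriptional co-activator that enters the nucleus and binds TEAD factors on DNA when the kinases of the Hippo pathway do not phosphorylate it. The 5SA form has its inhibitory phosphorylation sites replaced, so that the kinases cannot restrain it. In the heart YAP is known for driving growth in the fetus, and its activity declines as cardiomyocytes mature after birth, leave the cell cycle and turn to burning fatty acids.

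The libraries held 43.4 to 61.2 × 1e6 UMIs, and 34165 barcodes passed the first 2 conditions. Responder sums rested on 13.4 × 1e6 UMIs in YAP5SA chow and 8.10 × 1e6 in YAP5SA HFD, against 30.02 and 30.6 × 1e6 in the control chow and control HFD gated nuclei. Levels are given in CPM, UMIs per 1e6 UMIs of a summed group of nuclei, with chow before HFD wherever 2 values stand together. YAP5SA chow was a male library and the other libraries were female: in responders Xist stood at 8.04 and 2232 CPM and the Y-linked Ddx3y at 88.4 and 0.124 CPM. Pairs of libraries shared 11 to 34 barcodes. Doublet removal, run as an alternative only, took out 8.13% and 8.81% of responders and 9.45% and 10.7% of other gated nuclei. In YAP5SA chow the doublet caller itself marked 0.0115% of nuclei. The nuclei with the highest scores were removed there up to a set rate, 6.93% of the library. In YAP5SA HFD the caller itself marked 6.68%.

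Responders made up 36.5% of gated nuclei in YAP5SA chow (1932 of 5296, exact 95% interval 35.2% to 37.8%) and 17.8% in YAP5SA HFD (1044 of 5881, 16.8% to 18.8%). In the control libraries 2 of 4024 and 3 of 3659 gated nuclei met the same 4-gene condition, 0.0497% and 0.0820%. The intervals cover counting error only, with 1 library a group. A threshold of 0.1% in place of 0.2% gave 43.8% and 23.0%, and one of 0.4% gave 25.9% and 12.7%. Among nuclei outside the cardiomyocyte gate, which hold mostly other cell types, the condition was met by 1.62% in control chow, 7.44% in YAP5SA chow, 2.05% in control HFD and 5.26% in YAP5SA HFD. The median responder had 37 and 41 UMIs of the 4 genes, 0.596% and 0.637% of its total.

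**Figure D1:**
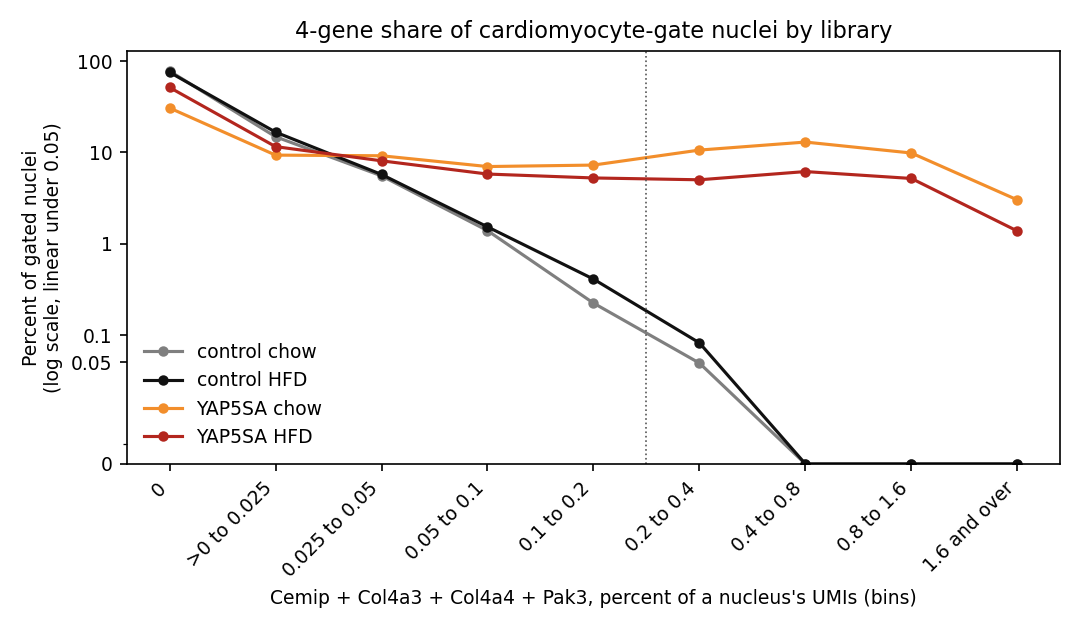
The horizontal axis bins gated nuclei by the percent of their UMIs from Cemip, Col4a3, Col4a4 and Pak3, and the vertical axis gives the percent of each library's gated nuclei in a bin on a log scale (linear under 0.05). Each line is 1 library and the dotted line marks the 0.2% condition. Control libraries reached 0 from the 0.4% bin on, while both YAP5SA libraries carried nuclei across the whole range without a gap at 0.2%.

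No gap separated responders from other gated nuclei at the threshold. In bins that double in width, YAP5SA chow fell from 30.7% of gated nuclei with no UMI of the 4 genes to 7.01% at 0.05% to 0.1% and reached 12.99% at 0.4% to 0.8%. In YAP5SA HFD 51.5% had no such UMI, 5.02% lay at 0.2% to 0.4% and 6.17% at 0.4% to 0.8%. Just inside the threshold, at 0.2% to 0.25%, lay 161 and 88 responders, and just outside, at 0.15% to 0.2%, lay 151 and 125 other gated nuclei. The cardiac myosin gene Myh6 stood at 1088 and 1118 CPM in those just inside and at 1585 and 1381 CPM in those just outside. Ankrd1, a YAP target and muscle ankyrin repeat gene, stood at 3609 and 2991 CPM inside and at 3714 and 2473 CPM outside.

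The cardiomyocyte label held in part. A list of 14 cardiomyocyte markers outside the gate summed to 10137 and 7317 CPM in responders, below the 19378 and 19001 CPM of control gated nuclei but well above the 1295 to 1841 CPM of nuclei outside the gate. Those nuclei were set apart by low cardiomyocyte gate genes, so the gap to them was partly built in. Of the 14 markers 8 were called lower than control and 0 higher (median log2 fold −1.92). No marker of that list was at 0: Myh6 stood at 563 and 529 CPM and the troponin gene Tnni3 at 66.6 and 76.0 CPM. The genes of the gate, which carry no test, were lower too, with Ttn at 7089.7 and 5386 CPM against 17529 and 16243 in control and Ryr2 at 3902 and 4054 against 11610.0 and 10475. The median share of the 6 gate genes was 1.72% and 1.63% of UMIs in responders, 4.304% and 4.19% in other gated nuclei and 4.81% and 4.90% in control. A stricter gate of 1.6% kept 1086 and 541 responders.

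Marker lists of other heart cells differed from control in both directions. The 9 fibroblast markers summed to 285 and 384 CPM against 524 and 931 in control gated nuclei, the 8 endothelial markers to 127 and 163 against 207 and 383, and the 6 pericyte markers to 44.1 and 41.3 against 139 and 209. The 9 macrophage markers summed to 57.1 and 96.0 CPM against 70.6 and 140.1. Other lists were higher: 5 endocardial markers at 291 and 315 CPM against 113 and 182, 6 atrial markers at 520.5 and 215 against 87.3 and 154, 5 smooth muscle markers at 1029 and 359 against 174 and 244, and 6 epicardial markers at 46.0 and 47.9 against 25.7 and 38.2. Much of the smooth muscle sum came from Acta2, a smooth muscle actin that is also a fetal cardiomyocyte gene. Of the 6 atrial markers only Nppa, also on the stress gene list below, was called higher. The median log2 fold of the atrial list was 1.22 in chow and −0.04 in HFD. Median depth was 5938 and 6531 UMIs per responder and 6119 and 6497 per control nucleus, against 4800 and 4973 per other gated nucleus.

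Responders differed from control cardiomyocytes over a large part of the genome. By edgeR's quasi-likelihood test with Benjamini-Hochberg adjustment on the summed counts of 2 responder and 2 control groups, 2864 of 17303 genes were higher (16.6%) and 2758 were lower (15.9%) at an adjusted p under 0.05, the 10 genes of the rule left out. At least 4-fold changes made up 995 of the higher and 827 of the lower calls. Both control libraries were female and YAP5SA chow was male, so sex is part of this comparison and was not separated from the vector. The nuclei were chosen by 4 genes on the YAP5SA side only, so genes that rise with those 4 within a library were carried along. The same fit without that choice, over every gated YAP5SA nucleus, called 542 of 18325 genes higher (2.96%) and 216 lower (1.18%). Of its 758 calls, 741 were also responder calls in the same direction, 97.8% of its own and 13.2% of the 5622 responder calls. Its sums hold the responder nuclei as well, beside the same control sums, so this overlap was partly fixed beforehand. Of the genes named here, 80 lost their call in it.

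Single libraries moved these counts. Without control chow the responder fit called 1463 higher and 1602 lower, without YAP5SA chow 1897 and 1440, and without YAP5SA HFD the lower calls came to 1624. Over all gated nuclei the counts fell to 204 and 43 without YAP5SA chow, and the lower calls to 136 without YAP5SA HFD.

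The genes furthest above control were nearly silent there. Myh2, the fast skeletal muscle myosin heavy chain IIa, had 0 UMIs in both control groups and 40.9 and 40.3 CPM in responders, at least 820.5-fold higher than a floor of 3 counts over both control groups. The insulin-like growth factor binding protein gene Igfbp2 had 2 control UMIs and 113 and 66.9 CPM in responders, a ratio of 2903 with a counting interval of 803 to 23990.0. Slc22a22, a transporter of prostaglandins, went from 0.267 and 0.229 to 203 and 152 CPM (log2 fold 9.56 ± 0.36 SE, edgeR adjusted p = 3.84e-05). These genes were chosen with both responder groups above both control groups, so that order is no result.

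Secreted and surface proteins stood among the other genes of this top set. The ligand gene Tnfsf15 stood at 0.533 and 0.687 CPM in control and 141 and 226 CPM in responders (log2 fold 8.29 ± 0.31 SE, edgeR adjusted p = 3.84e-05). Il23r, a subunit of the interleukin-23 receptor, stood at 0.167 and 0.0654 CPM in control and 32.7 and 73.9 CPM in responders, and Sema3e, a secreted guidance cue, at 2.8 and 1.24 CPM in control and 449 and 489.7 CPM in responders. Col12a1, a collagen that decorates fibrils, went from 2.57 and 3.63 to 609 and 618 CPM (log2 fold 7.72 ± 0.28 SE, edgeR adjusted p = 3.84e-05). Wwc1 encodes KIBRA, an upstream activator of the Hippo kinases, and stood at 2.07 and 2.72 CPM in control and 348 and 296 CPM in responders (log2 fold 7.17 ± 0.28 SE, edgeR adjusted p = 3.88e-05). The others were Ptchd4, a patched-domain gene (log2 fold 8.50), Scel, the epithelial envelope gene sciellin (8.24), the noncoding Platr22 (7.82) and the protease inhibitor Serpinb9b (7.60). All 12 genes were also called over all gated YAP5SA nuclei, which include the responders. There Wwc1 had a log2 fold of 5.50 (edgeR adjusted p = 0.00734).

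The genes furthest below control included several that mature heart muscle expresses. Plekhh1, of the pleckstrin homology family, stood at 162 and 156 CPM in control and 2.98 and 1.48 CPM in responders (log2 fold −5.97 ± 0.34 SE, edgeR adjusted p = 0.000105). Myh7b, a slow-type myosin heavy chain, fell from 239 and 219.9 to 8.56 and 14.2 CPM (log2 fold −4.27 ± 0.24 SE, edgeR adjusted p = 0.000108). Kcnip2, the auxiliary subunit of the transient outward potassium current, fell from 63.5 and 57.0 to 2.75 and 2.35 CPM (log2 fold −4.44 ± 0.24 SE, edgeR adjusted p = 0.000104). Rpl3l, the striated muscle form of ribosomal protein L3, stood at 44.2 and 38.8 CPM in control and 1.49 and 1.73 CPM in responders (log2 fold −4.60 ± 0.25 SE, edgeR adjusted p = 0.000104). Reads of Rpl3l could be split with its close relative Rpl3. The remaining 8 were Srrm4, Sbk1, Slc36a2, D7Ertd443e, Asb18, Phf24, Doc2g and Tmem82, with log2 folds from −5.86 to −4.195. Over all gated YAP5SA nuclei 8 of these 12 genes were called, and Slc36a2, D7Ertd443e, Asb18 and Tmem82 were not.

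**Figure D2:**
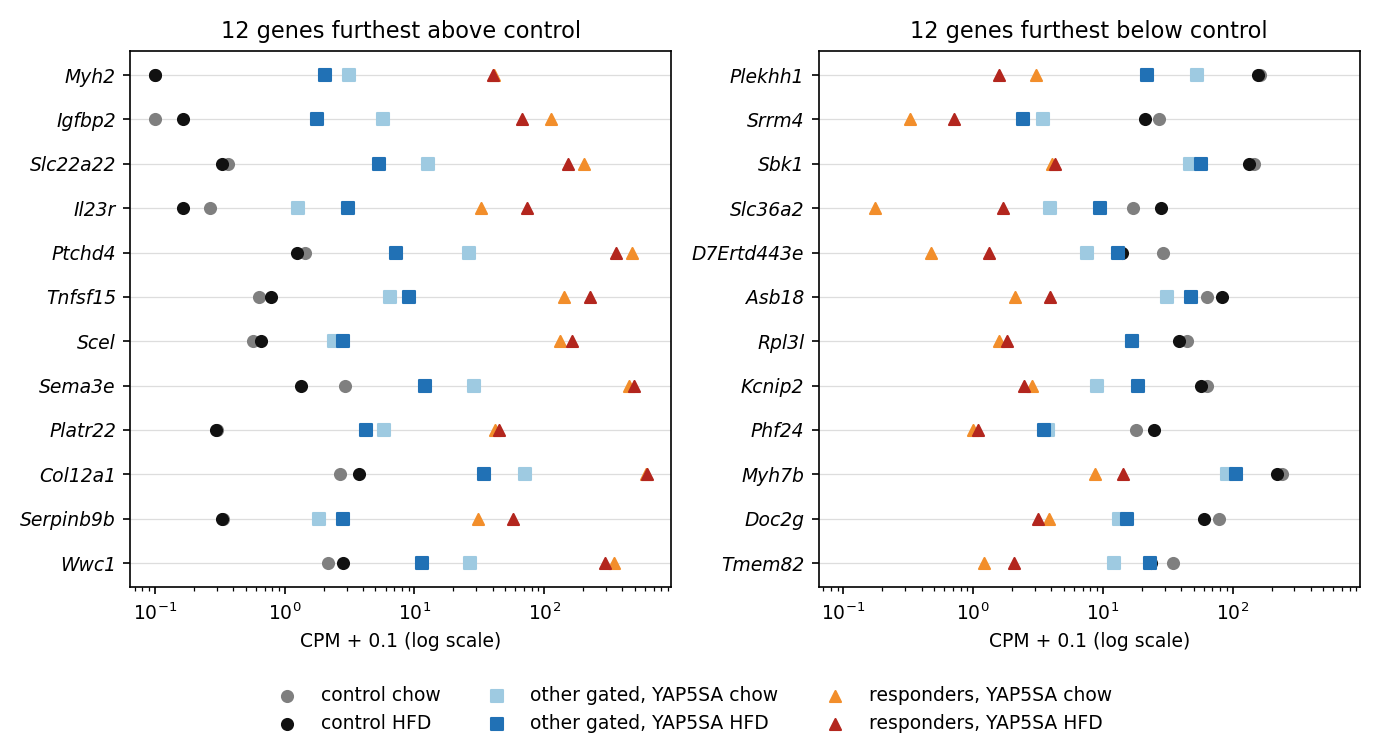
Each row is a gene named by its distance from control and the horizontal axis gives its CPM plus 0.1 on a log scale. Circles are control gated nuclei, squares other gated YAP5SA nuclei and triangles responders, 1 mark per library. All 24 genes were chosen with both responder groups beyond both controls, so the triangles lie beyond the circles by choice. The squares of the other gated nuclei lie between or near the control.

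Most of the YAP target genes tested rose. In a list of 22 known YAP targets 15 of 20 members tested rose and 1 fell (median log2 fold 2.04), against a median of −0.02 over all genes tested. List counts here and below stand beside the shares over all genes. These were 16.6% higher and 15.9% lower in responders, and 2.96% and 1.18% over all gated nuclei. Ccn1, a matricellular protein and classical target, stood at 12.0 and 16.7 CPM in control and 277 and 138 CPM in responders (log2 fold 3.99 ± 0.41 SE, edgeR adjusted p = 0.000767). Its neighbour in function Ccn2 stood at 33.5 and 39.7 CPM in control and 482 and 247 CPM in responders (log2 fold 3.44 ± 0.38 SE, edgeR adjusted p = 0.000981). The angiomotin gene Amotl2, which holds YAP in the cytoplasm, stood at 30.9 and 27.9 CPM in control and 381 and 318 CPM in responders (log2 fold 3.67 ± 0.23 SE, edgeR adjusted p = 0.000139). Ankrd1 rose from 1026 and 811 to 4018 and 2983 CPM (log2 fold 2.04 ± 0.30 SE, edgeR adjusted p = 0.00302). Responders exceeded both controls in each of them. F3, tissue factor, was the single member that fell, from 29.6 and 21.3 to 7.07 and 7.9 CPM (log2 fold −1.68 ± 0.25 SE, edgeR adjusted p = 0.0031). Over all gated YAP5SA nuclei 7 rose and 0 fell, and the direction of Ankrd1 held without its call, with a log2 fold of 1.19 (edgeR adjusted p = 0.113).

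Promoters of YAP targets and of the top genes are shown because TEAD factors bind a short core that a reader can find in them. The letters searched were GGAATG and its reverse complement CATTCC, 1 motif on both strands. They occurred in 14.7% of 32851 RefSeq promoters of 300 bases (250 before to 50 after a start, GRCm38.p6). Counted by gene, 15.3% of 12481 tested genes with a promoter held the core, 18.9% of 1995 higher genes and 15.6% of 2045 lower genes. In the target signature it was 7 of 15 matched genes, and of the 12 genes furthest above control 4 of the 11 matched. A match is a description of these letters, not of binding. Ccn1 (chr3:145649936-145650235, minus strand) holds it 103 bases before its start, Ankrd1 (chr19:36119795-36120094, minus strand) 210 and 123 bases before, Amotl2 (chr9:102717554-102717853, plus strand) 65 bases before, Tnfsf15 (chr4:63745010-63745309, minus strand) 140 bases before and Ptchd4 (chr17:42315697-42315996, plus strand) 146 bases before. The sequences are written 5′ to 3′ in the direction of the gene, with the core in capitals.
Ccn1: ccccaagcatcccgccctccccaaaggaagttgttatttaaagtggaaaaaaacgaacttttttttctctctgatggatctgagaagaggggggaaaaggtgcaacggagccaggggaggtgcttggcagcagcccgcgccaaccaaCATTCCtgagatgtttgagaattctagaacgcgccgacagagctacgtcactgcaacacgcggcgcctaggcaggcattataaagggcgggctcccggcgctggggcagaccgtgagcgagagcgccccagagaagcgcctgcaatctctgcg
Ankrd1: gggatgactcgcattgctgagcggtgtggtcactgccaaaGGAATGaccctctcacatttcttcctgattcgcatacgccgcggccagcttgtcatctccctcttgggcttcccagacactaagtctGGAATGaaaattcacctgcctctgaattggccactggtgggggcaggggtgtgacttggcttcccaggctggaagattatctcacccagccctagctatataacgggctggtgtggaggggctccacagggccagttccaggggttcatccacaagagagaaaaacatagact
Amotl2: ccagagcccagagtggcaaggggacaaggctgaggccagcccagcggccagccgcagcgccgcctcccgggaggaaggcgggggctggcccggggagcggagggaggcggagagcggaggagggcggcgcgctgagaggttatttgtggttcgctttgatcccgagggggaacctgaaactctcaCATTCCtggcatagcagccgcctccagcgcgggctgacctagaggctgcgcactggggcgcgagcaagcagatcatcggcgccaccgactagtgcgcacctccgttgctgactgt
Tnfsf15: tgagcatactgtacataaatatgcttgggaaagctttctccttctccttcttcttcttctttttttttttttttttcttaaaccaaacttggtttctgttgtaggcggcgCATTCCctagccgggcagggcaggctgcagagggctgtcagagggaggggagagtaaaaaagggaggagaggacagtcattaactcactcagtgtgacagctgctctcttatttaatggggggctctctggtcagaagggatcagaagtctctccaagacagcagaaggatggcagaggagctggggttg
Ptchd4: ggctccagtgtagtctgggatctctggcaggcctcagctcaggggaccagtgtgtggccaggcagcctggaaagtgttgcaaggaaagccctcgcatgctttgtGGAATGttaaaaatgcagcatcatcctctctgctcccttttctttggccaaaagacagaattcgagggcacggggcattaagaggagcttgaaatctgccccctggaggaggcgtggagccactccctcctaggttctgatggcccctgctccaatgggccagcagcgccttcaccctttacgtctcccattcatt

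Among the partners of YAP, 6 of 9 members tested rose and 0 fell (median log2 fold 1.21). Tead4, a TEAD factor low in the control heart, stood at 4.7 and 7.46 CPM in control and 73.1 and 74.8 CPM in responders (log2 fold 3.70 ± 0.26 SE, edgeR adjusted p = 0.000207), and Tead1, the abundant one, at 628 and 693 CPM in control and 1603 and 1232 CPM in responders (log2 fold 1.21 ± 0.25 SE, edgeR adjusted p = 0.0111). The vestigial-like cofactors compete with YAP for TEAD. Vgll3 rose from 6.13 and 10.2 to 429 and 376 CPM (log2 fold 5.72 ± 0.32 SE, edgeR adjusted p = 0.000104) and Vgll4 from 95.5 and 93.3 to 518 and 521 CPM (log2 fold 2.56 ± 0.19 SE, edgeR adjusted p = 0.000213). Vgll2, a skeletal muscle cofactor, had 0 control UMIs and 1.04 and 2.1 CPM in responders, at least 29.1-fold above the floor of 3 counts over both control groups. The list median is the same, 1.21, with Vgll2 at that bound. Tead3 rose (log2 fold 0.82), while Tead2 had 5.33 and 8.48 CPM in control and 7.74 and 4.57 CPM in responders. Mouse Yap1 itself stood at 135 and 122 CPM in control and 84.1 and 78.8 CPM in responders (log2 fold −0.56 ± 0.18 SE, edgeR adjusted p = 0.0529). Whether RNA of the vector would be counted as Yap1 was not given in the sources used here, so its level checks no label.

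Genes that restrain YAP were among those that rose. Of the Hippo pathway regulators, 11 of 21 members tested rose and 2 fell (median log2 fold 0.71). Besides Wwc1 and Amotl2, the kinase gene Lats2, which phosphorylates YAP, stood at 86.3 and 110.5 CPM in control and 291 and 388 CPM in responders (log2 fold 1.87 ± 0.20 SE, edgeR adjusted p = 0.000871), and Amot at 2.4 and 3.89 CPM in control and 18.4 and 14.2 CPM in responders (log2 fold 2.49 ± 0.34 SE, edgeR adjusted p = 0.00208). Lats1 and Nf2 were not called, with 70.7 and 82.7 CPM in control and 71.5 and 70.3 CPM in responders for Lats1 and 96.4 and 86.0 CPM in control and 67.7 and 65.1 CPM in responders for Nf2. Dchs1 (log2 fold −1.33) and Mob1b (−0.84) fell. Over all gated nuclei 3 rose and 0 fell.

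The matrix genes were called in both directions. In the basement membrane list 10 of 20 members tested rose and 4 fell (median log2 fold 0.63), or 50% and 20%. Over all genes 16.6% were higher and 15.9% lower, so the share that fell was near that of all genes. Col4a5, the chain that pairs with Col4a3 and Col4a4, rose from 197 and 206 to 719 and 814 CPM (log2 fold 2.02 ± 0.19 SE, edgeR adjusted p = 0.000497), and Lamc3, a laminin chain, from 0.267 and 0.524 to 7.22 and 7.41 CPM (log2 fold 4.29 ± 0.43 SE, edgeR adjusted p = 0.0007). Laminin alpha 2, the main muscle laminin, fell. Lama2 stood at 1342 and 1811 CPM in control and 388 and 493 CPM in responders (log2 fold −1.75 ± 0.23 SE, edgeR adjusted p = 0.00197), and Lamb1 and Lamb2 fell with it (log2 folds −1.70 and −1.54). In the interstitial list 7 of 23 members tested rose and 5 fell (median log2 fold −0.44), or 30.4% and 21.7%. Col8a1 stood at 12.9 and 20.3 CPM in control and 339.9 and 524 CPM in responders (log2 fold 4.78 ± 0.30 SE, edgeR adjusted p = 0.000144), and Spp1, osteopontin, had 0 control UMIs and 5.81 and 15.2 CPM, at least 188-fold above the same floor. Spp1 was as high in other gated nuclei, at 6.47 and 11.7 CPM. Other gated nuclei with a 4-gene share above 0 and under 0.2% held Col8a1 at 335 and 293 CPM. Those with no UMI of the 4 genes held it at 94.5 and 96.7 CPM. The fibroblast collagen gene Col3a1 fell from 194 and 372 to 94.1 and 107 CPM, beside the lower fibroblast marker sums given above, whose part was not tested. The interstitial median reversed over all gated nuclei, to 0.02.

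Hyaluronan, the glycosaminoglycan that Cemip binds, was represented by few calls, as 3 of 11 members tested rose and 0 fell (median log2 fold 0.14). The synthase gene Has1 stood at 1.87 and 3.44 CPM in control and 12.7 and 26.9 CPM in responders (log2 fold 2.96 ± 0.42 SE, edgeR adjusted p = 0.0024) and the receptor gene Cd44 at 26.7 and 27.0 CPM in control and 89.0 and 93.1 CPM in responders (log2 fold 1.86 ± 0.17 SE, edgeR adjusted p = 0.000494). Has1 was also above control in other gated nuclei with a 4-gene share above 0 and under 0.2%, at 13.4 and 12.9 CPM. The median of the hyaluronan list reversed without a count filter and without YAP5SA chow, to −0.09 and −0.14. Guidance cues and receptors were called in both directions, where 9 of 28 members tested rose and 10 fell (median log2 fold −0.36). Sema3e rose, and Plxnd1, the gene of its receptor plexin D1, fell from 20.6 and 28.3 to 4.76 and 5.56 CPM (log2 fold −2.15 ± 0.25 SE, edgeR adjusted p = 0.00116). Epha3 rose (log2 fold 2.93) and Robo2 fell (−1.98).

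Actin and adhesion genes were called mostly in the higher direction. In that list 21 of 43 members tested rose and 2 fell (median log2 fold 0.86). Cald1, caldesmon, rose from 193 and 251 to 3492 and 2096 CPM (log2 fold 3.77 ± 0.37 SE, edgeR adjusted p = 0.00063), and the calponin genes Cnn2 and Cnn3 had log2 folds of 3.18 and 2.80. Actn1, the non-muscle alpha-actinin, stood at 70.3 and 73.0 CPM in control and 564 and 334 CPM in responders (log2 fold 2.77 ± 0.32 SE, edgeR adjusted p = 0.00112). Acta1, skeletal actin, fell (log2 fold −2.33), as did the integrin gene Itga9 (−1.60). Over all gated nuclei 3 rose and 0 fell.

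The contractile apparatus was lower. In the sarcomere list 0 of 30 members tested rose and 17 fell (median log2 fold −1.15). Myh6, the adult alpha myosin, fell from 5159 and 4655 to 563 and 529 CPM (log2 fold −3.07 ± 0.26 SE, edgeR adjusted p = 0.000388), and Myh7, the fetal beta myosin, from 1073 and 857 to 574 and 472 CPM (log2 fold −0.78 ± 0.25 SE, edgeR adjusted p = 0.0468). Xirp2, an actin-binding protein, and Tcap, telethonin, fell, with log2 folds of −3.91 and −3.09. Over all gated nuclei 0 rose and 5 fell, with Myh6 at a log2 fold of −1.10 (edgeR adjusted p = 0.0422).

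Genes of excitation and calcium cycling were lower too. In the list of potassium and sodium channels 1 of 23 members tested rose and 17 fell (median log2 fold −2.31), the lowest median of any list. Kcnd2, a channel that Kcnip2 accompanies, stood at 1037 and 2056 CPM in control and 82.8 and 239 CPM in responders (log2 fold −3.21 ± 0.51 SE, edgeR adjusted p = 0.00393), and Kcnk3, a background channel, at 68.8 and 84.6 CPM in control and 4.39 and 5.56 CPM in responders (log2 fold −3.86 ± 0.22 SE, edgeR adjusted p = 0.000104). Scn10a was the 1 member that rose, to 6.25 and 7.78 CPM from 1.3 and 1.31. It stood at 10.4 and 8.94 CPM in other gated nuclei with a 4-gene share above 0 and under 0.2%. In responders with a share of 1% and over it stood at 2.59 and 2.33 CPM. In the calcium list 0 of 20 members tested rose and 10 fell (median log2 fold −0.79). The calcium pump gene Atp2a2 fell from 2966 and 3219 to 653 and 855 CPM (log2 fold −1.95 ± 0.23 SE, edgeR adjusted p = 0.00127), its inhibitor Pln from 1136 and 928 to 119.7 and 272 CPM (log2 fold −2.34 ± 0.35 SE, edgeR adjusted p = 0.00302), and the phosphodiesterase gene Pde4d from 3696 and 4017 to 250.1 and 354 CPM (log2 fold −3.59 ± 0.26 SE, edgeR adjusted p = 0.000209).

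Junction and transcription factor genes were less uniform. In the intercalated disc list 2 of 15 members tested rose and 3 fell (median log2 fold 0.22), shares near the 16.6% higher and 15.9% lower over all genes. The desmosomal genes Dsc2 and Dsg2 fell (log2 folds −1.83 and −1.18) and the tight junction scaffold gene Tjp1 rose (0.85). That median reversed to −0.08 without control HFD. Among cardiac transcription factors 2 of 18 members tested rose and 8 fell (median log2 fold −0.51), and over all gated nuclei 0 rose and 0 fell by edgeR. Hopx fell from 239 and 217 to 32.1 and 14.2 CPM (log2 fold −3.16 ± 0.41 SE, edgeR adjusted p = 0.0017) and Thrb, a thyroid hormone receptor gene, from 344 and 396 to 59.2 and 93.9 CPM (log2 fold −2.20 ± 0.22 SE, edgeR adjusted p = 0.000685). Hand2 rose (log2 fold 1.05), and Gata4 was not called at 802 and 876 CPM in control and 655 and 442 CPM in responders.

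Genes of fuel use were lower in responders in most of the lists examined. Among regulators of the PPAR, ERR and PGC1 group, nuclear receptors and co-activators that switch on mitochondrial and fatty acid genes, 0 of 14 members tested rose and 9 fell (median log2 fold −1.75). Ppara fell from 275 and 366 to 35.5 and 42.2 CPM (log2 fold −2.95 ± 0.21 SE, edgeR adjusted p = 0.000204), and all gated nuclei gave −1.90 (edgeR adjusted p = 0.00893). Esrrg fell from 1752 and 1578 to 245 and 246 CPM (log2 fold −2.67 ± 0.22 SE, edgeR adjusted p = 0.000323), and Esrra from 131 and 119 to 38.9 and 30.5 CPM (log2 fold −1.74 ± 0.22 SE, edgeR adjusted p = 0.00163). The co-activator gene Ppargc1a had uneven controls, with 614 and 1569 CPM in control and 237 and 212 CPM in responders (log2 fold −2.17 ± 0.42 SE, edgeR adjusted p = 0.00811), and Ppargc1b fell from 939 and 743 to 206 and 192 CPM (log2 fold −1.98 ± 0.23 SE, edgeR adjusted p = 0.00111). Rxrg, Esrrb, Pparg and Ppard also fell (log2 folds −4.53, −2.95, −1.76 and −0.76). Rxra, Rxrb, Nrf1, Tfam and Gabpa were not called, with log2 folds from −0.60 to −0.18.

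In fatty acid uptake and oxidation 0 of 28 members tested rose and 22 fell (median log2 fold −1.49). Cpt1b, the enzyme that admits fatty acids to mitochondria, fell from 163 and 130.4 to 23.1 and 17.4 CPM (log2 fold −2.74 ± 0.25 SE, edgeR adjusted p = 0.000518), with −1.35 (edgeR adjusted p = 0.0218) over all gated nuclei. The importer gene Cd36 fell from 824 and 716 to 213 and 285 CPM (log2 fold −1.55 ± 0.20 SE, edgeR adjusted p = 0.00191), and Acsl1, which activates fatty acids, from 357 and 224 to 52.7 and 52.5 CPM (log2 fold −2.37 ± 0.27 SE, edgeR adjusted p = 0.00105). Plin5, the lipid droplet coat, and the transporter Slc27a1 had the lowest folds of the list (−2.99 and −2.75). In this list all gated nuclei gave 1 call.

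For pyruvate and the TCA cycle 3 of 31 members tested rose and 22 fell (median log2 fold −1.17). Mpc1, the pyruvate carrier, fell from 157 and 132 to 40.6 and 35.0 CPM (log2 fold −1.83 ± 0.21 SE, edgeR adjusted p = 0.00115), and Ogdh, of the cycle itself, from 558 and 726 to 167 and 159 CPM (log2 fold −1.87 ± 0.21 SE, edgeR adjusted p = 0.00112). Pdk3, a kinase that shuts pyruvate dehydrogenase, rose from 6.53 and 6.12 to 23.3 and 25.1 CPM (log2 fold 2.03 ± 0.21 SE, edgeR adjusted p = 0.000756). Its relative Pdk4 stood at 400.0 and 54.6 CPM in control and 91.1 and 82.1 CPM in responders, with controls far apart, and was not called (log2 fold −1.30 ± 0.75 SE, edgeR adjusted p = 0.227). In the nuclear-encoded respiratory chain 0 of 48 members tested rose and 38 fell (median log2 fold −0.89), led by Cox6a2, the muscle form of a cytochrome oxidase subunit (−1.90). Over all gated nuclei 0 rose and 5 fell in the pyruvate and TCA list, and 0 rose and 2 fell in the respiratory chain.

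Few glycolysis genes rose. In that list 3 of 24 members tested rose and 8 fell (median log2 fold −0.33), against 16.6% higher and 15.9% lower over all genes. Slc2a1, the GLUT1 transporter of the fetal heart, rose from 2.3 and 1.67 to 43.7 and 23.5 CPM (log2 fold 4.205 ± 0.41 SE, edgeR adjusted p = 0.00063), and Slc2a4, the insulin-dependent GLUT4, fell from 36.4 and 31.9 to 12.3 and 9.14 CPM (log2 fold −1.55 ± 0.25 SE, edgeR adjusted p = 0.00419). Hk2 and Eno1 rose (log2 folds 0.89 and 0.93), while Hk1 and the muscle enolase Eno3 fell (−1.35 and −2.40). Pfkm, muscle phosphofructokinase, had the lowest fold, with 105 and 86.1 CPM in control and 12.1 and 15.4 CPM in responders (log2 fold −2.72 ± 0.21 SE, edgeR adjusted p = 0.000236). Over all gated nuclei 1 member of the list was called lower, Pfkfb2, and none higher. In the creatine and energy shuttle list 0 of 13 members tested rose and 7 fell (median log2 fold −0.61), with Ckm, muscle creatine kinase, from 68.1 and 83.9 to 6.92 and 7.53 CPM.

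Cell cycle genes were higher by small amounts. In the DNA replication list 13 of 22 members tested rose and 0 fell (median log2 fold 1.03), at low levels. Ccne1, cyclin E1, stood at 1.7 and 1.28 CPM in control and 4.99 and 4.82 CPM in responders (log2 fold 1.82 ± 0.37 SE, edgeR adjusted p = 0.00998). In the mitosis list 7 of 22 members tested rose and 0 fell (median log2 fold 0.59). Anln, anillin of the cleavage furrow, rose from 33.2 and 30.4 to 82.0 and 71.4 CPM (log2 fold 1.37 ± 0.20 SE, edgeR adjusted p = 0.00275) and Ect2 had a log2 fold of 1.33. Within responders these levels differed along the 4-gene share. Anln stood at 130.2 and 96.9 CPM in nuclei at 0.2% to 0.5% but at 34.0 and 35.0 CPM in nuclei at 1% and over, near its control level. Ect2 went likewise from 163 and 132 to 31.4 and 40.6 CPM. Mki67 was not called, at 29.8 and 28.5 CPM in control and 30.7 and 36.7 CPM in responders and 41.4 and 39.0 CPM in other gated nuclei. Among G1 regulators 5 of 18 members tested rose and 1 fell (median log2 fold 0.28). Myc rose from 2.33 and 1.54 to 11.5 and 13.6 CPM (log2 fold 2.78 ± 0.32 SE, edgeR adjusted p = 0.00113), cyclin genes Ccnd1 and Ccnd2 had log2 folds of 1.01 and 0.83, and the inhibitor gene Cdkn1b fell (−0.92). No member of the replication or mitosis lists was called over all gated nuclei by edgeR, where their medians were 0.62 and 0.37.

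Secreted signals were among the lists with most higher calls. In that list 22 of 45 members tested rose and 7 fell (median log2 fold 1.08), and over all gated nuclei 9 rose and 0 fell. The share that fell in responders, 15.6%, was near the 15.9% over all genes. Inhba, the activin A subunit, rose from 6.16 and 5.99 to 211 and 302 CPM (log2 fold 5.48 ± 0.22 SE, edgeR adjusted p = 3.88e-05), and Tgfb3 from 4.2 and 7.85 to 172 and 76.2 CPM (log2 fold 4.50 ± 0.51 SE, edgeR adjusted p = 0.00111). The macrophage growth factor gene Csf1 rose from 16.6 and 16.9 to 90.4 and 134 CPM (log2 fold 2.82 ± 0.20 SE, edgeR adjusted p = 0.000209), and the ErbB ligand Nrg1 from 30.3 and 35.7 to 92.0 and 80.4 CPM (log2 fold 1.49 ± 0.20 SE, edgeR adjusted p = 0.00204). Ccl2, a monocyte attractant, stood at 1.07 and 4.78 CPM in control and 24.9 and 8.27 CPM in responders but at 40.5 and 16.1 CPM in other gated nuclei. Angpt1, a vessel stabiliser, fell from 89.0 and 155 to 5.06 and 21.2 CPM (log2 fold −3.20 ± 0.57 SE, edgeR adjusted p = 0.00591), and Vegfa, the main angiogenic factor, from 589 and 508 to 221 and 192 CPM (log2 fold −1.31 ± 0.21 SE, edgeR adjusted p = 0.00438). Among receptor tyrosine kinase genes 4 of 24 members tested rose and 8 fell (median log2 fold −0.17), with Igf1r higher (1.43) and Met lower (−2.18). The share that rose was near the 16.6% over all genes. Those that fell included Kdr, Pdgfra and Pdgfrb, markers of endothelial cells, fibroblasts and pericytes, whose marker sums were lower too, and their part was not tested.

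Stress and fetal genes were higher in part. In that list 8 of 20 members tested rose and 3 fell (median log2 fold 0.38). The share that fell, 15%, was near the 15.9% over all genes. Nppa, atrial natriuretic peptide, stood at 57.2 and 66.6 CPM in control and 451 and 124 CPM in responders (log2 fold 2.36 ± 0.57 SE, edgeR adjusted p = 0.0194), Nppb at 122 and 83.3 CPM in control and 818 and 329 CPM in responders (log2 fold 2.61 ± 0.48 SE, edgeR adjusted p = 0.00678) and Acta2 at 146 and 166 CPM in control and 958 and 322 CPM in responders (log2 fold 2.18 ± 0.51 SE, edgeR adjusted p = 0.0165). In all 3 genes YAP5SA chow was far above YAP5SA HFD, yet both exceeded both controls.

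**Figure D3:**
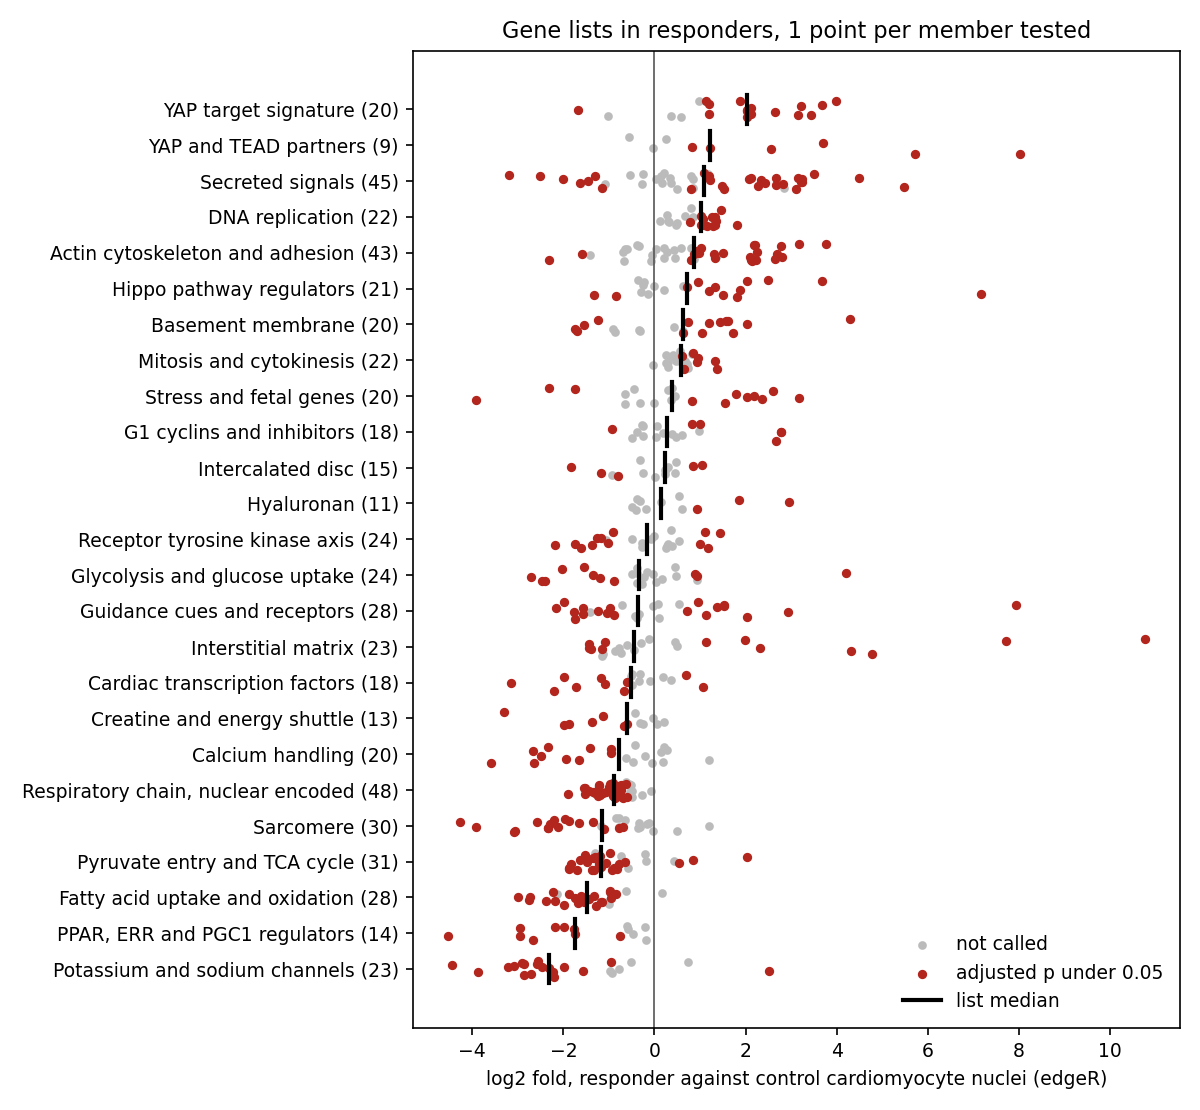
Each point is a list member tested and the horizontal axis gives its log2 fold in responders against control. Red points passed an adjusted p of 0.05, black bars are list medians, and the number tested stands in brackets. The YAP target signature has the highest median (2.04) and the channel list the lowest (−2.31). Fitted values of Vgll2 and Spp1, at 0 in both controls, are no bounds.

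Other gated nuclei of the same hearts had fewer calls against control than responders had. By edgeR 35 of 18124 genes were higher in them than in control (0.193%) and 15 lower (0.0828%), with 3172 at an unadjusted p under 0.05. These counts depended on single libraries. Without YAP5SA chow both fell to 0 (3494 genes at an unadjusted p under 0.05), without YAP5SA HFD they were 11 and 3, without control chow 192 and 178, and without control HFD 398 and 192. DESeq2 called 593 and 402. Not every gene described above lay between control and responders, as Ccl2 and Mki67 stood higher in other gated nuclei than in responders. The group also includes nuclei just under the 0.2% threshold. In 5 genes picked from those above, the other gated nuclei held middle values. Wwc1 stood at 26.7 and 11.4 CPM, Ccn1 at 91.4 and 42.0, Vgll3 at 34.0 and 17.3, Myh6 at 3422 and 2989 and Ppara at 115 and 109. Both sides were chosen by the 4-gene share, so responders and other gated nuclei are compared by description only.

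In both libraries 470 of 9121 genes were at least 2-fold higher in responders than in other gated nuclei (5.15%) and 841 at least 2-fold lower (9.22%). The genes with the largest such gaps were Scel, at 2.3 and 2.73 CPM in other gated nuclei and 131 and 163 in responders, and Frmpd1, at 15.2 and 11.1 and 247 and 254, with Serpinb9b, Tnfsf15, Ptchd4, Il23r, Slc22a22 and Igfbp2. At the low end stood Xirp2, at 177 and 189.8 CPM in other gated nuclei and 17.6 and 14.2 in responders, with Plekhh1, Sbk1, Asb18, Kif28, Ribc2 and Art1. Ribc2 stood higher in other gated nuclei (17.6 and 26.2 CPM) than in control (9.73 and 10.3).

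Levels along the 4-gene share are given as a description, since the rule used that share and the genes were chosen in nuclei picked by it. From nuclei with no UMI of the 4 genes to those with 1% and over, in 5 bins, all 12 genes furthest above control were higher at each step in YAP5SA chow and 11 of 12 in YAP5SA HFD. Tnfsf15 went from 2.32 through 8.64, 71.0 and 134 to 261 CPM in YAP5SA chow and from 3.58 through 14.5, 102 and 214 to 424 CPM in YAP5SA HFD. Ccn1 was already at 75.1 and 38.2 CPM in nuclei with no UMI of the 4 genes and reached 327 and 186 CPM in the top bin. Of the 12 genes furthest below control, 4 and 6 were lower at each step. The median share of the 6 gate genes fell along the bins as well, from 4.81% to 1.40% in YAP5SA chow and from 4.53% to 1.31% in YAP5SA HFD, while median depth rose from 4194 to 6041 and from 4448 to 7097 UMIs. The part of depth in these levels was not tested.

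**Figure D4:**
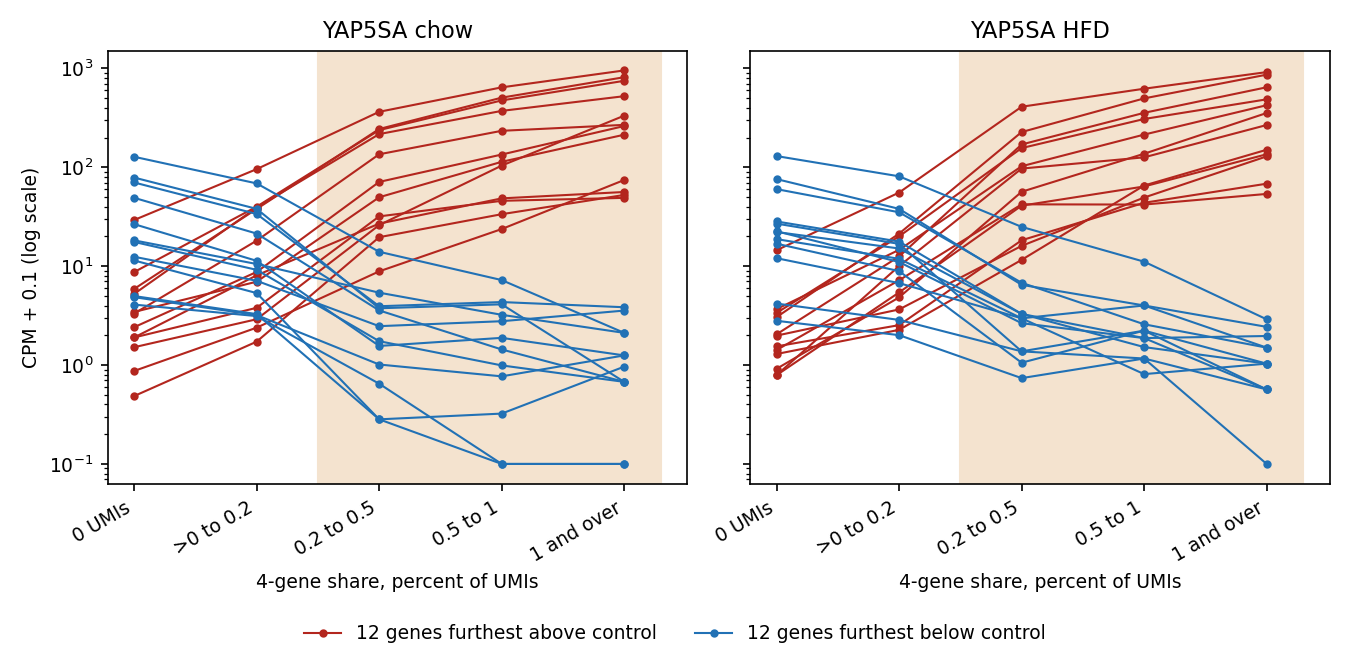
The horizontal axis bins gated YAP5SA nuclei by the percent of their UMIs from the 4 genes, with responders shaded, and the vertical axis gives CPM plus 0.1 on a log scale. Each line is 1 of the 12 genes furthest above (red) or below (blue) control, and each panel is 1 library. Red lines climb across the threshold and go on rising above it, and most blue lines drop furthest on crossing the threshold.

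Within responders, some genes tracked the 4-gene share from nucleus to nucleus. After thinning to 2000 UMIs, which left out shallower responders, Spearman's rho with the 4-gene sum, ranked by the value nearer 0 of the 2 libraries, was highest for Gng12 (0.36 over 1907 nuclei in YAP5SA chow and 0.37 over 1029 in YAP5SA HFD), a G protein gamma subunit, and Mid1 (0.37 and 0.33), a microtubule-associated ubiquitin ligase. Ctdspl, Mprip, Sema3e, Cobl, Vgll3 and Col12a1 followed with 0.28 to 0.40. By the same ranking the most negative were Myh7 (−0.33 and −0.35), Myh6 (−0.33 and −0.35), the noncoding Mhrt and Atp2a2. These nuclei share a library and a depth, and the values describe them only.

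Between the diets, 249 of 8642 genes were at least 2-fold higher in HFD than in chow responders (2.88%) and 52 at least 2-fold lower (0.602%), with no test since each diet had 1 library. With TMM factors the counts were 143 and 89. Sex differed between the 2 libraries, so diet, sex and library cannot be told apart. Among the highest were Efemp1, a fibulin, at 19.1 and 133 CPM (log2 difference 2.79), the zinc finger genes Zfp984 (5.12) and Zfp970 (2.86), and Kcnj3, an atrial potassium channel (2.52). Ccdc192, Fgf12, Sugct and Cacna2d3 completed that set. Fgf12 and Kcnj3 stood at 11810 and 569.8 CPM in a subcluster of 11 chow and 39 HFD nuclei (subcluster 7, described with the subclusters), against 58.4 and 6.36 CPM in the other responders. Among the lowest were Tpm3-rs7, at 26.9 and 0.865 CPM, Nppa (−1.86) and Ccl2 (−1.58), with AW551984, Tmem100, Adam22, Cdh20 and Egln3. Control libraries showed the same gap in Tpm3-rs7, at 5.86 and 0.295 CPM, and reads of this copy of Tpm3 may be split with it. Zfp984 had no such gap in control, at 3.9 and 3.83 CPM. It did differ in other gated YAP5SA nuclei with no UMI of the 4 genes, at 1.16 and 8.48 CPM. Efemp1 went the other way in those nuclei, at 4.12 and 1.70 CPM.

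The genes of the rule stood at similar levels in both responder groups, as the rule asks. Cemip stood at 1954 and 2460.1 CPM, Col4a3 at 2138 and 2056, Col4a4 at 2092 and 1768 and Pak3 at 1556 and 1485. The median log2 difference between the diets was −0.06 in the YAP target signature and 0.38 in the fatty acid list, against 0.16 over all genes tested.

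Clustered on their own, responders fell into 9 subclusters, described here by their leading genes with no test. Subcluster 6 held 358 nuclei and was led by the cell division genes Kif23, Top2a and Anln. It took up 12.99% of responders in YAP5SA chow and 10.2% in YAP5SA HFD. Its mitosis list summed to 4129 CPM, against 76.7 to 714 CPM in the other subclusters. Myh6 stood at 246 CPM in it and Ankrd1 at 3595 CPM.

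Subclusters 0, 3, 4 and 8 belonged mostly to 1 library each. Subcluster 0 held 40.1% of chow but 2.78% of HFD responders and was led by the noncoding Mirg, Rian and Meg3 with Igfbp2 and Scel. Subcluster 8 held 1.19% and 52.2% and was led by Efemp1, Bmp4 and Vegfd. Both had the highest median 4-gene share, 1.01% and 0.874%, and the most Cemip, at 3834 and 3649 CPM. Subcluster 4 held 25.9% and 3.26%, with Wnt5b, Myh7 and Nppa in front. A subcluster mostly of 1 library may be that library, with its sex and diet, rather than a state.

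Subcluster 5, with 6.83% and 19.3% of responders, had Ppara at 77.2 CPM, above every other subcluster, and was second to subcluster 1 in Myh6, at 1725 CPM, and in the fatty acid list, at 1961 CPM. Its median 4-gene share was 0.363%, and the doublet alternative, with its set rate in YAP5SA chow, removed 22.2% of it. Subcluster 1, of 17 chow and 4 HFD nuclei, was led by the atrial genes Myl7, Sln and Bmp10 and also held fibroblast markers at 5246 CPM. Subcluster 7, of 11 chow and 39 HFD nuclei, had Sln and Bmp10 among its leading genes after Fgf12 and Kcnj3. Subcluster 3, of 125 chow and 4 HFD nuclei, was led by Dnah8 and Cdh8. Subcluster 2, of 179 nuclei, was led by Ebf1 and Piezo2, held 1107 CPM of fibroblast and 699 CPM of endothelial markers, and had a median of 11640 UMIs. The same doublet alternative removed 154 of its nuclei (86.0%).

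**Figure D5:**
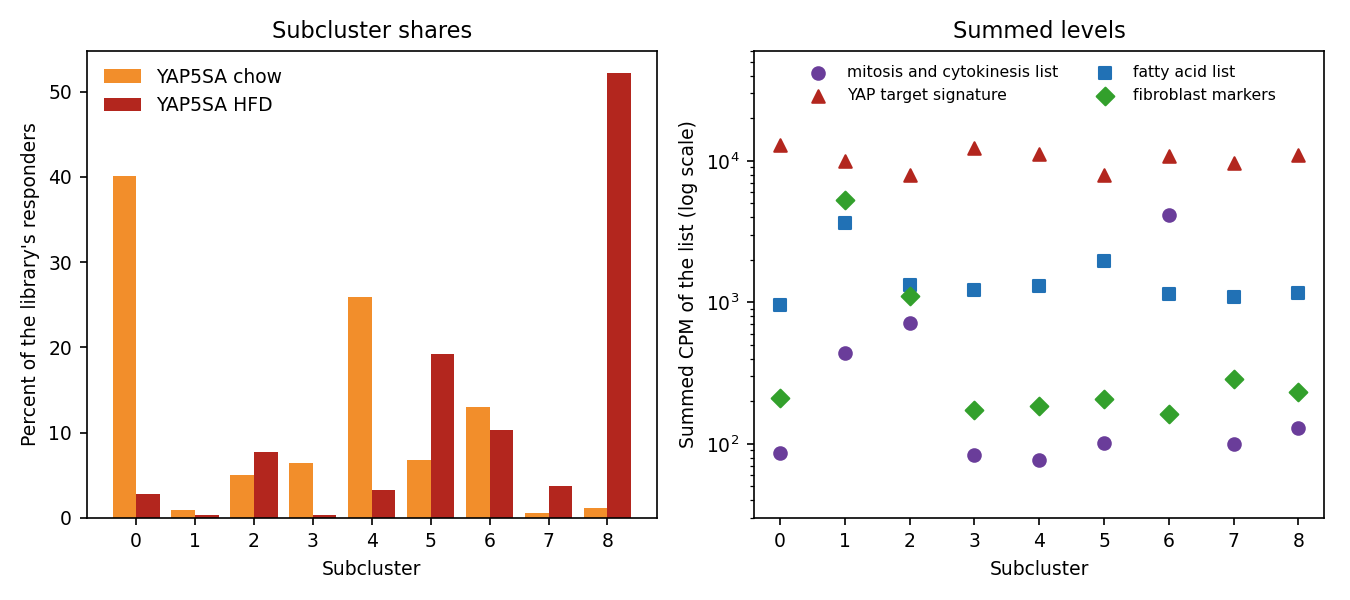
Left, the percent of each library's responders in each subcluster (bars from 0). Right, the summed CPM of 4 lists per subcluster on a log scale. Subcluster 6 stands out in the mitosis list at 4129 CPM, and subclusters 1 and 2 in fibroblast markers at 5246 and 1107 CPM.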

How the data were processed

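Counts are UMIs per gene and nucleus as the authors deposited them for each of 4 libraries, made with Cell Ranger 7.1.0 and the build mm10, per the submitters' processing notes. Whether introns were counted, and with which annotation, was not given in the sources used here. All 4 nucleus conditions were applied to every barcode, and counts were summed per library over responders, other gated, all gated and not gated nuclei. The sums were tested with edgeR 4.0.16 (TMM, filterByExpr, quasi-likelihood F test, Benjamini-Hochberg over all genes tested, R 4.3.3), 2 YAP5SA against 2 control libraries with diet left in the spread and 2 residual degrees of freedom. Comparisons with 1 library a side, or between groups both chosen by the rule, were counted as at least 2-fold apart among genes of mean CPM at least 10, with no test. On simulated counts with 16978 genes in the fit, 54% of genes changed 2-fold and 100% of genes changed 4-fold were recovered for this comparison, with 6 false calls. The simulation changed 100 genes per fold, all above 10 CPM, with no choice of nuclei on 1 side and no diet or sex gap. Its recovery and false calls therefore do not measure errors among the responder calls. Subclusters came from scanpy 1.11.5 (2000 variable genes, 20 components, 15 neighbours, Leiden resolution 0.5). Where the doublet caller Scrublet marked under 0.5% of a library, 0.8% per 1000 nuclei was used. This applied to control chow and YAP5SA chow. Alternatives were other settings of each condition, DESeq2 1.42.0, its size factors, no count filter, diet as a term, thinning to 2000 UMIs and leaving out each library. Those for all gated nuclei, other gated nuclei and diet were added after seeing the data. The members, lists and tests were chosen with earlier results of these data known. Named genes were the 12 highest and 12 lowest log2 folds past adjusted p of 0.05 with mean CPM at least 10. In these, both responder groups had to lie beyond both controls. Also named were up to 3 per list and direction and all YAP partners and PPAR regulators. Comparisons between groups of nuclei, between diets and by correlation each gave 8 per direction. Other list members named were chosen after their values were seen. A few genes that these rules name are not reported here. Sex genes, genes of the rule and unnamed models were left out of the ranking.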

Additional observations from a re-analysis of the deposited data

Results flagged for a closer look

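The feature tables hold 6 added sequences, and 1 of them, named nsp13, was counted outside the main measurement. Responders carried 25.2 CPM of it in YAP5SA chow (338 UMIs, exact 95% interval 22.6 to 27.99) and 12.35 CPM in YAP5SA HFD (100 UMIs, 10.1 to 15.02). Other gated nuclei carried 6.43 and 2.38 CPM and nuclei outside the gate 5.57 and 2.85 CPM. Control gated nuclei had 0 and 1 UMI. What the sequence stands for was not given in the sources used here.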

How the results depend on the processing

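With 1 library per group and 2 residual degrees of freedom, calls rest on the spread of 2 libraries an arm. Pairing the libraries by diet as titled, with diet as a term, gave 2821 higher and 2813 lower responder calls. Against control, responder calls were 542 higher and 216 lower with no 4-gene condition, and leaving out 1 library in turn gave 1463 to 2261 higher and 1440 to 2180 lower. For all gated nuclei the higher and lower calls were 1154 and 812 by DESeq2, 1008 and 553 with no count filter, 326 and 107 with diet as a term, 308 and 113 with a cardiomyocyte gate of 1.6%, and 204 to 595 and 43 to 274 leaving out 1 library. Other gated nuclei gave 593 and 402 by DESeq2, and 0 to 398 and 0 to 192 leaving out 1 library. The responder share in YAP5SA chow and YAP5SA HFD moved to 43.8% and 23.0% with a 4-gene condition of 0.1%, to 25.9% and 12.7% with 0.4%, to 25.5% and 10.6% with the gate of 1.6% and to 38.2% and 18.8% on nuclei thinned to 2000 UMIs. Among genes with mean CPM from 50 up, 254 and 283 were 2-fold higher and lower in responders than in other gated nuclei, and 50 and 19 between HFD and chow, where TMM factors gave 143 and 89. With no 4-gene condition, 80 of the named genes lost their call and 8 turned direction. Those were Art1 (log2 fold 0.72), Cacna2d3 (0.30), Pdgfrb (0.13), Pdk4 (0.28), Ribc2 (0.60), Rxra (0.098), Sugct (−0.32) and Tead2 (0.14). Tead2 also turned with stricter nuclei (0.067), without doublets (0.066) and when thinned (0.79), and Mki67 with a 4-gene condition of 0.4% (−0.26). Leaving out 1 library in turn gave log2 folds on both sides of 0 for Egln3 (−0.55 to 1.20), Fgf12 (−0.59 to 2.30), Lats1 (−0.11 to 0.090), Pdk4 (−2.13 to 0.78), Sugct (−0.88 to 1.13), Tead2 (−0.57 to 0.36), Tmem100 (−0.78 to 1.12), Tpm3-rs7 (−1.84 to 5.73), Zfp970 (−0.37 to 2.33) and Zfp984 (−1.92 to 3.07). List medians turned for the interstitial matrix (0.019 with no 4-gene condition), hyaluronan (−0.087 with no count filter, −0.14 to 0.57 leaving out 1 library), the intercalated disc (−0.076 without control HFD) and receptor tyrosine kinases (0.091 with no 4-gene condition, −0.24 to 0.041 leaving out 1 library). The cause was not tested. The median of all genes moved from −0.02 to −0.13 with no count filter.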
